A study of Mus musculus and Rattus norvegicus with 96 samples.

Results

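The response to phenobarbital (PB) was measured in mouse liver that had been frozen first and only then placed in formalin and embedded in paraffin (FR>FFPE). Its 12 libraries, chosen by the preservation that the labels give, are a share of the 48 mouse liver libraries and of the 96 samples in the series. They come from 12 male B6C3F1 mice aged 10 to 11 weeks, of which 6 drank water with 600 ppm PB for 7 days and 6 drank water alone (Con). The PB mice were 18B, 18D, 20B, 20D, 75C and 80B, and the Con mice were 8A, 8C, 8D, 21C, 82B and 90C. All 12 livers were frozen, then fixed in 10% buffered formalin for 18 to 24 h and kept as paraffin blocks for about 16 months before RNA was extracted from cut curls. The same 12 mice also gave a frozen (FR), a directly formalin-fixed (FFPE) and a frozen-then-ethanol (FR>OH) library each, which serve below as a comparison.

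PB is an anticonvulsant and the textbook inducer of drug metabolism in liver. It turns on the constitutive androstane receptor (CAR, gene Nr1i3) of the hepatocyte without binding to it, and in the mouse it also acts through the related pregnane X receptor (PXR, gene Nr1i2). Both receptors pair with the retinoid X receptor on repeats of short half-sites in the DNA, many of them far from the start site, and switch on cytochromes P450, conjugating enzymes and transporters. PB is also a mitogen for mouse hepatocytes and enlarges the liver.

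Total counts on genes were 9736477 to 10395484 in the 6 PB libraries and 8812947 to 10681771 in 5 of the Con libraries, while Con mouse 21C had 5534973. The difference between the totals of the groups did not pass an exact two-sided permutation test (PB higher by 1227860 on average, p = 0.0541, adjusted p = 0.162 over 3 library measures, smallest possible p = 0.00216). Without mouse 21C the difference was 570253 (exact permutation p = 0.108). Mouse 21C had 5.13% of its counts on the ribosomal locus Rn45s, the most of the 12, and its genes lay farther from their group median than those of any other mouse (interquartile range of the log2 deviation 0.581, against 0.293 to 0.362 in the other 11). The numbers of calls are therefore also given without this mouse, as are the calls of some genes for which the 2 differ. The titles of the libraries carry a number after the letter L, which is 3 in every Con and 4 in every PB library. The labels do not say what it stands for, and in these libraries it cannot be told apart from the treatment. Values below are CPM (counts per 1000000 counts of the same library), means are given ± SD with n = 6 mice, and 1 CPM is 5.53 to 10.7 counts.

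Of 13370 genes tested, 239 (1.79%) were differentially expressed genes (DEGs) of PB, with an edgeR adjusted p under 0.05 and a change of at least 2-fold. The rises were 218 genes (1.63% of those tested) and the falls were 21 (0.157%). By size, 119 rises were between 1 and 2 on the log2 scale, 86 between 2 and 4, and 13 above 4, whereas only 3 falls were below -2. The 6 PB and the 6 Con values did not overlap at all in 139 of the rises and 9 of the falls, and in 488 of all tested genes (3.65%). Because the RNA is from whole tissue, fewer cells of a type and less RNA per cell cannot be told apart in any value below. The median log2 fold change of all tested genes was 0.06.

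Among 16 genes of xenobiotic and nuclear receptors, 1 rose and 15 were not called (median log2 fold change -0.03). Nr1i3, which encodes CAR, had 37.3, 28.7, 30.9, 71, 22.1 and 28.3 CPM in Con mice 8A, 8C, 8D, 21C, 82B and 90C. In PB mice 18B, 18D, 20B, 20D, 75C and 80B it had 24.5, 33.6, 30.3, 39.1, 28.4 and 27.4 CPM. The groups overlapped, with mouse 21C far above every other mouse, and the log2 fold change came to -0.23 (SE 0.22 by edgeR, adjusted p = 0.647) with this mouse and 0.05 without it. Nr1i2, which encodes PXR, was 46.0 ± 10.4 CPM in Con and 61.1 ± 8.00 CPM in PB mice, a difference that was not called (log2 fold change 0.42, SE 0.13, adjusted p = 0.0875). The aryl hydrocarbon receptor gene Ahr, whose protein senses planar aromatic compounds and drives P450 family 1, was the receptor that rose. It had 47.0 to 70.0 CPM in Con and 126 to 174 CPM in PB mice, with no overlap (log2 fold change 1.31, SE 0.10, adjusted p = 5.19e-07). Its target Cyp1a2, a P450 for caffeine and aromatic amines, rose from 296 ± 69.7 to 857 ± 102 CPM (1.54, SE 0.14), and Cyp1a1 was not called at 0.870 ± 0.446 and 1.81 ± 0.217 CPM (0.99, adjusted p = 0.0620).

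The largest rise was in Cyp2b10 (chr7:25897658-25926624, + strand), the P450 gene by which CAR activity is commonly read. Its Con values were 0, 0.549, 0.843, 0.723, 0.546 and 0.518 CPM, in the order of mice above. Its PB values were 1078, 1532, 1712, 1302, 1437 and 1779 CPM, in the order of mice above. Every PB mouse was thus more than 1000 CPM above every Con mouse. On the log2 scale it rose by 11.41 (SE 0.30, edgeR adjusted p = 4.86e-13), and its size rests on the few Con counts. The bases just upstream of the start site are shown because this gene had the strongest response. They are 150 bases of the GRCm38.p6 assembly from RefSeq (chr7:25897508-25897657, + strand) and held neither of the nuclear receptor half-sites AGGTCA and AGTTCA on either strand, so none is in capitals.
Cyp2b10: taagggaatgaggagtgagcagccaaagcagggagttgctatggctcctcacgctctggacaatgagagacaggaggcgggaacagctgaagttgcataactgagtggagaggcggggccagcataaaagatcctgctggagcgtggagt
Over windows of 250 bases before the start site, AGGTCA on either strand was present in 32 of 168 rises with a sequence (19.1%), against 13.5% of 10280 tested genes and 15.8% of all 27025 promoters in the RefSeq table. AGTTCA was in 11.3% of the rises and 10.7% of the tested genes. The distal enhancers of these genes lie outside such windows.

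Of the subfamilies 2a and 2b, 2 of 4 tested genes rose, the other being Cyp2a5, a coumarin hydroxylase. Cyp2b9 was left out by the filter on low counts, with no count over the Con and 38 over the PB group. Cyp2a5 had 28.3 to 84 CPM in Con and 286 to 897 CPM in PB mice, where mouse 20B was the highest (log2 fold change 3.23, SE 0.30, edgeR adjusted p = 4.95e-06). In subfamily 3a, 3 of 4 tested genes rose, out of 9 listed. Among those that the filter took out, Cyp3a44 had 5 counts over the Con and 169 over the PB group. Cyp3a41a had 1 and 60, Cyp3a16 0 and 36, and Cyp3a41b 0 and 21. Cyp3a11 (chr5:145854607-145879854), the main inducible drug oxidase of mouse liver and the usual reporter of PXR, was 25.2, 131, 153, 173, 54.9 and 75.9 CPM in Con mice. The PB mice had 3678, 5141, 8371, 4696, 4586 and 6906 CPM, so the groups lay far apart while each spread over more than 2-fold. The log2 fold change was 5.77 (SE 0.44, adjusted p = 4.50e-07), with Cyp3a59 at 3.02 (SE 0.39) and Cyp3a25 at 1.47 (SE 0.18). Cyp3a13 was not called (81 and 148 CPM, 0.87, adjusted p = 0.0553).

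Subfamily 2d went in both directions, with 1 rise and 1 fall among 9 tested genes. Cyp2d12 rose from 0.712 ± 0.468 to 8.78 ± 2.48 CPM (log2 fold change 3.56), whereas Cyp2d40 fell from 71.3 ± 11.4 to 30.7 ± 5.01 CPM (-1.22, SE 0.12), both without overlap. Cyp2g1, an oxidase best known from the nose, rose within very low levels from 0.189 ± 0.0428 to 0.943 ± 0.419 CPM (2.24). It was 1 of 8 other genes of family 2. Cyp2e1, the ethanol-inducible P450, was not called at 3027 ± 279 and 3498 ± 421 CPM (0.21, SE 0.12). None of 13 tested genes of family 4, the fatty acid hydroxylases, was called, with a median log2 fold change of 0.00. P450 genes of a subfamily are alike in sequence, and their counts were estimated by expectation maximization, so that reads of near copies are shared out by the model.

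**Figure D1:**
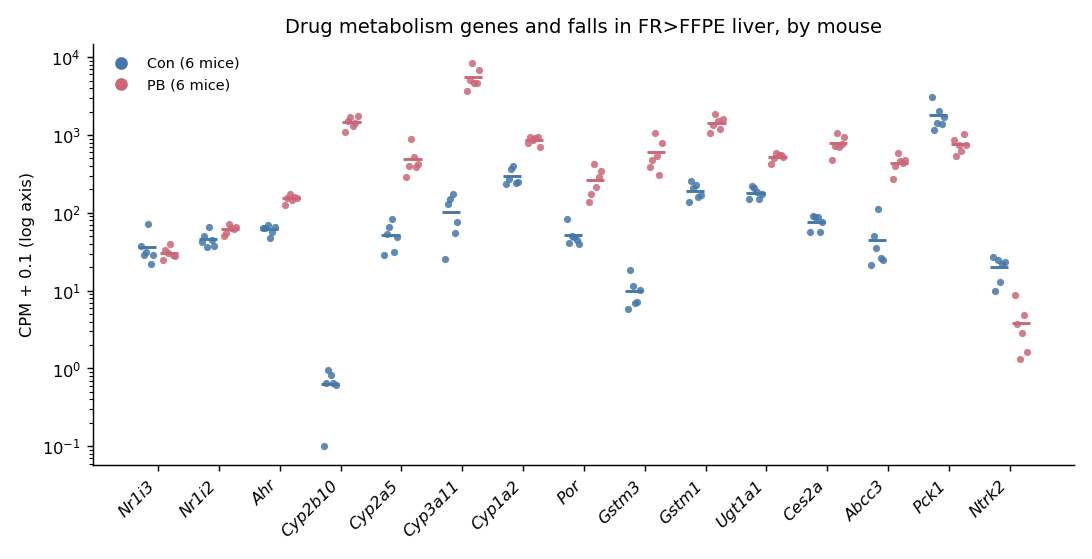
CPM + 0.1 on a log axis for 15 genes in the 6 Con (blue) and 6 PB (red) FR>FFPE livers, each point 1 mouse and each bar the group mean. Nr1i3 and Nr1i2 overlap between groups, Cyp2b10 rises from under 1 CPM to 1078 to 1779 CPM, and Pck1 and Ntrk2 are lower in every PB mouse.

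The Cyp2c genes of chromosome 19 rose in separate blocks, 6 of 12 tested in all (median log2 fold change 1.99). Subfamily 2c enzymes oxidize drugs, retinoids and arachidonic acid. Read along the chromosome, Cyp2c55, the pseudogene Cyp2c53-ps and Cyp2c29 rose at one end, the stretch from Cyp2c38 to Cyp2c68 held no call, and Cyp2c37, Cyp2c54 and Cyp2c50 rose beyond it. Cyp2c55 (chr19:39007019-39042687) was 0.546 to 1.87 CPM in Con and 371 to 525 CPM in PB mice (8.48, SE 0.22, adjusted p = 4.86e-13). Cyp2c53-ps rose from 0.374 ± 0.356 to 135 ± 24.3 CPM (8.57, SE 0.30). Cyp2c29 had 59, 262, 310, 246, 111 and 152 CPM in Con mice, lowest in 8A, and 2989, 3744, 4164, 3689, 3871 and 4303 CPM in PB mice. Its change was 4.32 on the log2 scale (SE 0.34, adjusted p = 5.68e-07). In the stretch without a call, Cyp2c67 had 240 CPM in Con and 166 CPM in PB mice (-0.53, SE 0.18, adjusted p = 0.115), Cyp2c68 61.6 and 56.2 CPM (-0.13), Cyp2c38 2.59 and 1.82 CPM (-0.46) and Cyp2c39 1.71 and 2.07 CPM (0.31). Beyond them, Cyp2c37 rose from 31.0 ± 11.4 to 519 ± 90.4 CPM (4.07, SE 0.25), Cyp2c54 from 41.8 ± 17 to 978 ± 167 CPM (4.55, SE 0.26) and Cyp2c50 from 152 ± 54.6 to 1888 ± 203 CPM (3.64, SE 0.23). The last genes in this order, Cyp2c70, which hydroxylates bile acids, and the distant Cyp2c44 were not called (0.28, adjusted p = 0.451, and 0.35, adjusted p = 0.345). Cyp2c40 and Cyp2c69 were under the filter, with 32 and 7 counts over the Con and 19 and 8 over the PB group.

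A further pair, Cyp2c65 and Cyp2c66, lies between Cyp2c55 and Cyp2c53-ps and had no count at all in the 6 Con libraries, which is why the filter on the geometric mean left both out. Cyp2c66 had 134, 146, 86, 137, 137 and 94 counts in the PB mice (12.2 ± 2.64 CPM). Against a floor of 3 counts over the whole Con group (0.0567 CPM) it was at least 215-fold higher in PB. Cyp2c65 had 12 to 24 counts in each PB mouse and was at least 29.3-fold higher. Cyp2c66 was also at 0 in all Con libraries of the other preparations, with 5.20 to 16.9 CPM in every PB library of them.

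**Figure D2:**
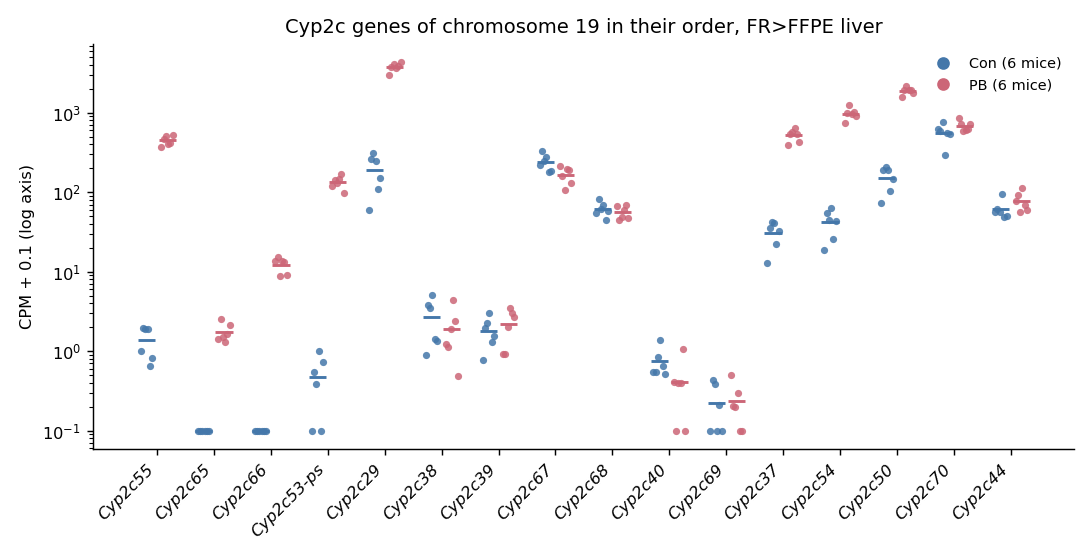
CPM + 0.1 on a log axis of the 16 Cyp2c genes of chromosome 19, in the order of their position, in Con (blue) and PB (red) mice, with bars at the group means. From Cyp2c55 to Cyp2c29 and from Cyp2c37 to Cyp2c50 the groups are apart, while from Cyp2c38 to Cyp2c69 they overlap or lie close together.

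Upstream sequences of 2 Cyp2c pairs are shown, 1 pair in which both genes rose and 1 in which a single member rose. Each is the 150 bases before the start site (GRCm38.p6, + strand, from RefSeq), and capitals mark bases that differ from the partner or face a gap when both windows of 250 bases are aligned. Cyp2c37 (chr19:39992274-39992423) and Cyp2c50 (chr19:40089529-40089678) were identical over 84.3% of the aligned window, and both rose.
Cyp2c37: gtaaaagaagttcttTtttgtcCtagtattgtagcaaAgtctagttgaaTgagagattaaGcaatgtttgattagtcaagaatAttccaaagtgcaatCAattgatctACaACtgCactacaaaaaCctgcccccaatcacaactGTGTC
Cyp2c50: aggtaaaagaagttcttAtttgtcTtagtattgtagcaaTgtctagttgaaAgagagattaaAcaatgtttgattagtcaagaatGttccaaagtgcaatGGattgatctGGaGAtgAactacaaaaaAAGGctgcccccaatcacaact
Cyp2c29 (chr19:39286935-39287084), which rose, and Cyp2c39 (chr19:39510672-39510821), which was not called, were identical over 68.1% of it, with gaps counted as differences.
Cyp2c29: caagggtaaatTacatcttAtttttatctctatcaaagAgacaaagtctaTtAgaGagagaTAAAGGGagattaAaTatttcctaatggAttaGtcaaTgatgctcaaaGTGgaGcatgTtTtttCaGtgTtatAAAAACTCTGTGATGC
Cyp2c39: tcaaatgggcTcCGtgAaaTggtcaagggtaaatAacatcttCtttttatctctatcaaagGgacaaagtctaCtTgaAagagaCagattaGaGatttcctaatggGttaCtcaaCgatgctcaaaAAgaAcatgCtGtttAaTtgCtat
Cyp2c68, which was not called, and Cyp2c69, which was left out by the filter, were identical over 91.3%. Gaps lower these shares. Cyp2c29 and Cyp2c39 had 186 identities, 41 mismatches and 46 gaps, and Cyp2c37 and Cyp2c50 had 215, 30 and 10. The printed sequences of Cyp2c29 and Cyp2c39 are offset against each other, so their gaps depend in part on where each start site was set. The lower share of this pair is therefore no measure of how far the shared bases differ. All of these shares are descriptions of the letters and were not set against the response.

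P450 enzymes need electrons from NADPH and a haem group. Of 8 genes for electron supply, 2 rose (median 0.34). Por (chr5:135689145-135735326), the reductase that feeds all microsomal P450 enzymes, was 39.1 to 84.3 CPM in Con and 137 to 426 CPM in PB mice (log2 fold change 2.36, SE 0.26, edgeR adjusted p = 3.41e-05). Cyb5a, cytochrome b5, rose from 341 ± 45.7 to 827 ± 44.8 CPM (1.28, SE 0.10), and Pgrmc1, a haem-binding partner of P450 enzymes, was under the 2-fold limit at 0.91 (adjusted p = 2.72e-05). None of 12 genes of haem synthesis and breakdown was called. Alas1, the rate-limiting enzyme of haem synthesis and a known PB target, had 266, 130, 23, 46.8, 166 and 67.5 CPM in Con mice and 362, 133, 143, 63.6, 209 and 431 CPM in PB mice. Mice of each group differed by more than 5-fold, so that 0.94 on the log2 scale (SE 0.51) was not called (adjusted p = 0.378). Of the flavin monooxygenases, a separate oxidase family, Fmo5 rose (1.07, SE 0.10) and 3 were not called.

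Conjugating enzymes attach glutathione, glucuronate or sulfate to the products of P450 enzymes. Of 22 glutathione transferase genes 9 rose and none fell (median 0.54). Gstm3 (chr3:107963696-107969174) was 5.79, 18.2, 11.2, 6.87, 7.10 and 9.95 CPM in Con mice and 390, 480, 1071, 533, 310 and 792 CPM in PB mice, highest in 20B and 80B. It changed by 5.90 on the log2 scale (SE 0.36, edgeR adjusted p = 3.54e-08). The nearby Gstm1 rose from 193 ± 45.2 to 1426 ± 294 CPM (2.88, SE 0.18), and Gstm2, Gstm4 and Gstm6 rose by 2.63, 1.87 and 1.06. Gsta1 had at most 0.723 CPM in Con mice, and 24.2 and 25.8 CPM in PB mice 20B and 80B against 2.98 to 4.28 CPM in the other 4. Its 6.18 on the log2 scale (SE 0.96, adjusted p = 8.88e-04) was 4.54 without those 2 mice. Gsta2 rose by 2.93, Gsta4 by 1.10 and Gstt3, of the theta class, by 3.50. Gstt1, beside Gstt3, was called only without Con mouse 21C (0.93 with and 1.02 without it, adjusted p = 3.34e-04 and 1.13e-04), and Gstp1, of the pi class, was 1132 and 1210.0 CPM with no call (0.10). Gsta1 and Gm3776 are near copies, and Gm3776 was left out by the filter with 5 counts over the Con and 287 over the PB group.

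Of 18 UDP glucuronosyltransferase genes 5 rose (median 0.62). Ugt1a1, the enzyme that conjugates bilirubin, rose from 181 ± 30.1 to 520 ± 55.9 CPM (log2 fold change 1.52, SE 0.12, edgeR adjusted p = 5.19e-07), and Ugt1a9 by 1.48. These share the 3′ part of 1 locus, so their counts were split by the model. Ugt2b34, Ugt2b35 and Ugt2b36 rose by 1.82, 1.65 and 1.16. Ugdh, which makes the UDP-glucuronate that these enzymes use, rose from 85.7 ± 7.07 to 190 ± 46.5 CPM (1.15). Of 8 sulfotransferase genes 3 rose. Sult1e1, the estrogen sulfotransferase, had 0 to 0.830 CPM in Con and 0.597 to 17.7 CPM in PB mice, highest again in 20B and 80B (4.11, SE 0.86), while Sult1c2 and Sult1d1 rose by 1.83 and 1.07.

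Enzymes that hydrolyse, oxidize or reduce drugs followed in part. Ephx1, the microsomal epoxide hydrolase, was 51.1 to 117 CPM in Con and 192 to 275 CPM in PB mice (log2 fold change 1.77, and 1.98 without 21C). Of 15 carboxylesterase genes, which cleave ester drugs, 4 rose (median 0.44), led by Ces2a from 75.9 ± 15.7 to 781 ± 206 CPM (3.36, SE 0.19, edgeR adjusted p = 2.10e-08). Ces2c, Ces1g and Ces1d rose by 2.14, 1.62 and 1.57. Ces1f was 206 CPM in mouse 21C and 30.1 to 129 CPM in the other Con mice. It was not called with that mouse (0.80, adjusted p = 0.280) and was called without it (1.24, adjusted p = 0.0325). Aldh1a1, a retinal dehydrogenase, rose from 561 ± 123.3 to 1988 ± 319 CPM (1.83, SE 0.16), and Aldh1a7 by 1.07, as 2 of 15 aldehyde dehydrogenases. Of 14 aldo-keto reductases 4 rose, among them Akr1b7 from 0.130 ± 0.121 to 7.31 ± 5.87 CPM (5.85) and Akr1d1, a steroid reductase of bile acid synthesis, from 96.6 ± 17.1 to 236 ± 41.9 CPM (1.29). Of 12 targets of Nrf2, the factor for oxidant stress, 5 rose, of which Gsta1, Gsta2, Gstm1 and Gstm3 stand on the glutathione list too. The fifth was Srxn1, which repairs peroxiredoxins (1.17).

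Transporters carry drugs and conjugates into and out of the hepatocyte. Abcc3, which exports glucuronides to the blood, had 21.0, 50.5, 35.3, 112, 26.5 and 25.0 CPM in Con mice and 271, 401, 582, 465, 438 and 479 CPM in PB mice. Its change was 3.30 (SE 0.36, edgeR adjusted p = 2.72e-05), and 3.79 without mouse 21C, whose value stood far above the other Con mice. Abcb1a, the drug efflux pump, rose from 0.879 ± 0.173 to 2.27 ± 0.513 CPM (1.34, SE 0.24), as the other rise among 12 efflux transporters. Slco1a4, an uptake carrier of digoxin, rose from 15.8 ± 6.53 to 43.9 ± 12.8 CPM (1.50) and was the only call among 8 uptake transporters. The export pumps of the canaliculus, Abcc2 and Abcb11, were not called (0.67, adjusted p = 4.60e-03, and 0.15, adjusted p = 0.41).

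**Figure D3:**
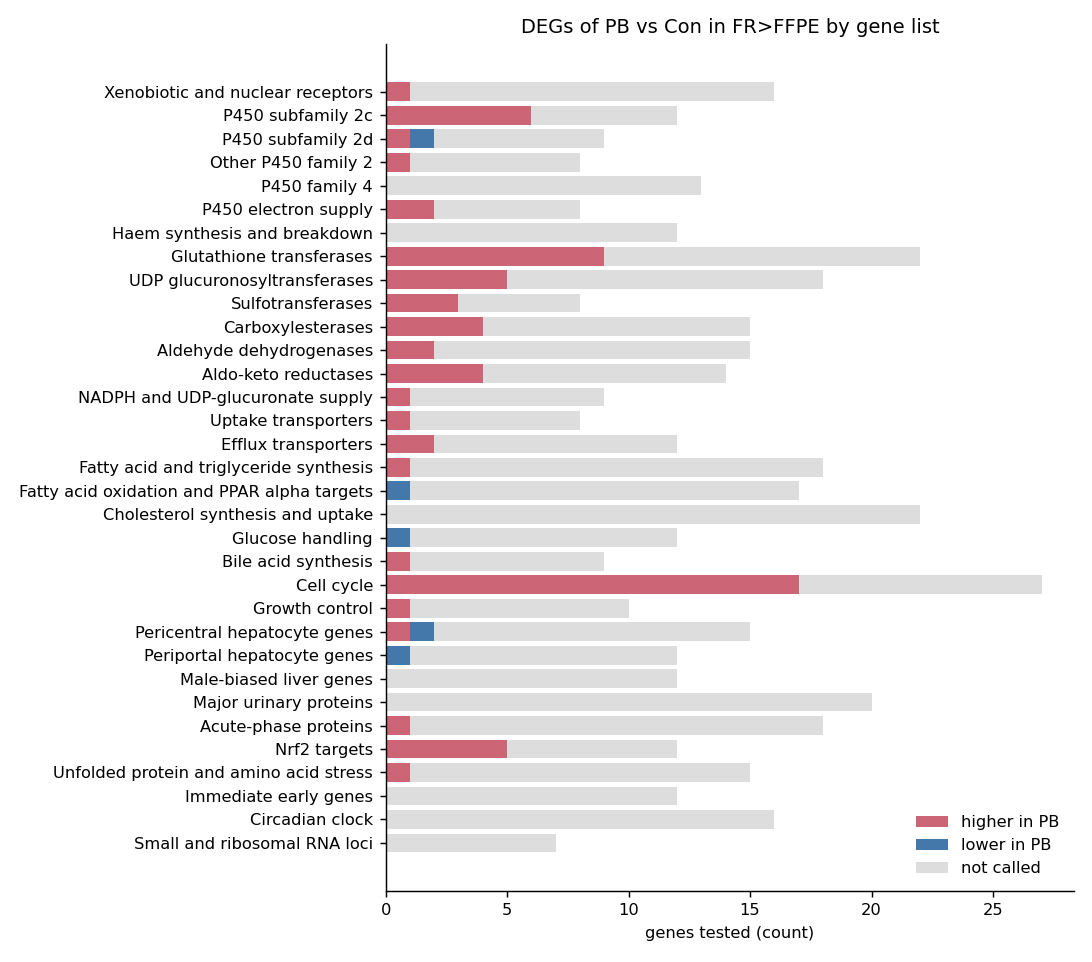
Number of genes tested in each gene list with at least 6 tested members, split into those higher in PB (red), lower in PB (blue) and not called (grey), lists of cell type markers left out. Cell cycle genes (17 of 27), glutathione transferases (9 of 22) and P450 subfamily 2c (6 of 12) hold the most rises, and no list holds more than 1 fall.

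Falls were few and small. The largest was in Ntrk2 (chr13:58806569-59133970), the receptor for brain-derived neurotrophic factor, which had 26.8, 9.89, 24.8, 12.6, 22.1 and 23.3 CPM in Con mice. The PB mice had 8.62, 3.59, 1.21, 2.79, 4.81 and 1.55 CPM, all below every Con mouse. The log2 change was -2.41 (SE 0.37, edgeR adjusted p = 7.47e-04). Pck1 (chr2:173153073-173159253), the rate-limiting enzyme of gluconeogenesis, was 3112, 1166, 1446, 2039, 1375 and 1691 CPM in Con and 858, 543, 736, 629, 1029 and 741 CPM in PB mice. It fell by 1.26 on the log2 scale (SE 0.22, adjusted p = 2.53e-03), and so did Ctcflos, a noncoding gene on the same strand just upstream of it, from 26.6 ± 8.45 to 9.33 ± 2.49 CPM (-1.51, SE 0.20). Pck1 was the only call among 12 genes of glucose handling. Angptl4, an inhibitor of lipoprotein lipase and a PPAR alpha target, fell by 1.39 as the only call among 17 genes of fatty acid oxidation. Without mouse 21C, 2 genes of this list rose and 1 fell.
Other falls without overlap were 3930402G23Rik (-2.05), Slc16a11, a monocarboxylate carrier (-1.15), D630003M21Rik (-1.03), Slc25a22, a mitochondrial glutamate carrier (-1.17), and Lgals4, a galectin (-1.53). The calls of Slc25a22, Lgals4 and D630003M21Rik were lost without mouse 21C (-0.98 for each).

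Lipid synthesis moved little. Of 18 genes of fatty acid and triglyceride synthesis only Thrsp, a regulator of lipogenesis, was called. It rose from 170 ± 91.4 to 401 ± 116 CPM (log2 fold change 1.23, SE 0.29, edgeR adjusted p = 0.0213), with overlap between the groups. Scd1, the stearoyl-CoA desaturase, had 10978, 16707, 18698, 13666, 9119.5 and 7695 CPM in Con mice. The PB mice had 7153, 5317, 3719, 9738, 1161 and 5946 CPM, and the highest of them overlapped with the lowest Con mice. At -1.22 (SE 0.37) it missed the threshold (adjusted p = 0.0754). None of 22 genes of cholesterol synthesis and uptake was called, and Akr1d1 was the single call among 9 genes of bile acid synthesis.

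Genes of cell division rose. Of 27 cell cycle genes tested 17 rose and none fell, a share of 62.96% where 1.63% of all genes tested rose, and the median log2 fold change was 1.94. Without mouse 21C 15 of them rose. Cdc20 (chr4:118432901-118437343), the activator of the anaphase-promoting complex, had 0.454, 0.879, 0.374, 0.181, 0.328 and 0.311 CPM in Con mice and 2.13, 3.90, 12.5, 4.18, 3.37 and 12.3 CPM in PB mice. It changed by 3.84 on the log2 scale (SE 0.53, edgeR adjusted p = 3.12e-04). Mki67, the proliferation marker Ki-67, had 9.53, 12, 5.71, 5.78, 6.77 and 7.88 CPM in Con mice and 25.7, 21.4, 83, 29.0, 17.4 and 70.0 CPM in PB mice (2.36, SE 0.38, adjusted p = 1.10e-03). In both genes all PB mice were above all Con mice, and 20B and 80B were far above the other 4. The mitotic cyclins Ccnb1, Ccnb2 and Ccna2 rose by 3.67, 2.90 and 1.94, the kinases Bub1, Plk1, Cdk1, Aurka and Aurkb by 3.06, 2.63, 2.38, 2.13 and 2.04, and their activator Foxm1 by 2.52. Among replication genes, Rrm2, Top2a, Ccne2, Mcm5 and Mcm6 rose by 1.97, 1.96, 1.93, 1.45 and 1.18. Birc5 (survivin) rose by 1.53. The G1 cyclin Ccnd1 was not called at 40.5 ± 9.0 and 33.5 ± 7.94 CPM (-0.28, SE 0.16, adjusted p = 0.385), nor were Pcna (0.53, adjusted p = 0.0875), Tyms, Ccne1 and Mcm7. Hmmr, a spindle protein outside this list, was 0 to 0.989 CPM in Con and 2.98 to 17.6 CPM in PB mice (3.87, SE 0.58), and it was named after its values were seen. Most of these genes are at a few CPM, so single values rest on few counts.

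The size of this response differed from mouse to mouse. The summed CPM of the 27 genes was 93.4 to 128.3 in Con mice. In PB mice it was 188.7 in 18B, 164.6 in 18D, 394.6 in 20B, 187.0 in 20D, 134.5 in 75C and 335.2 in 80B, so all PB mice were above all Con mice and 2 stood out. Mice 20B and 80B also ranked first and second among the PB mice in 133 of the 218 rises (61.01%), against 8.07% of all tested genes. The same 2 mice were the highest in 64.2% of these 218 genes in FR, 54.6% in FFPE and 69.7% in FR>OH, where 11.7%, 8.78% and 9.01% of all tested genes had that order. The 218 genes and the 2 mice were picked from these same values, and the other libraries are of the same livers. These shares are therefore a description and not a test. Without both mice, a comparison added after their values were seen, 138 genes rose (1.03%) and 20 fell, 149 of the 239 DEGs remained, and 90 were lost, of which 83 were rises. Of the cell cycle genes 10 of 27 then rose in place of 17. Cdc20 was still called at 2.93, Ccnb1 at 2.31 and Mki67 at 1.55, while Plk1 (1.63) and Mcm6 (0.79) were not. Cell cycle sums of these mice stood out in each preparation of the same liver, with 331.0 and 333.2 CPM for 20B and 80B in FR where the other PB mice had 120.1 to 159.99 CPM. Acute-phase proteins, made by the liver in inflammation, were also highest in these mice: the summed CPM of 18 such genes was 66249 in 20B and 63263 in 80B, above the other PB mice (15751 to 48166) and the Con mice (19862 to 56644). The other PB mice did not share an order in the 2 sums, since 75C had the lowest cell cycle sum and the highest acute-phase sum among them. The part of these genes in the cell cycle values was not tested. Of the 18 genes Orm3 alone was called, and its call was lost without both mice (log2 fold change 2.68 with and 1.61 without them).

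**Figure D4:**
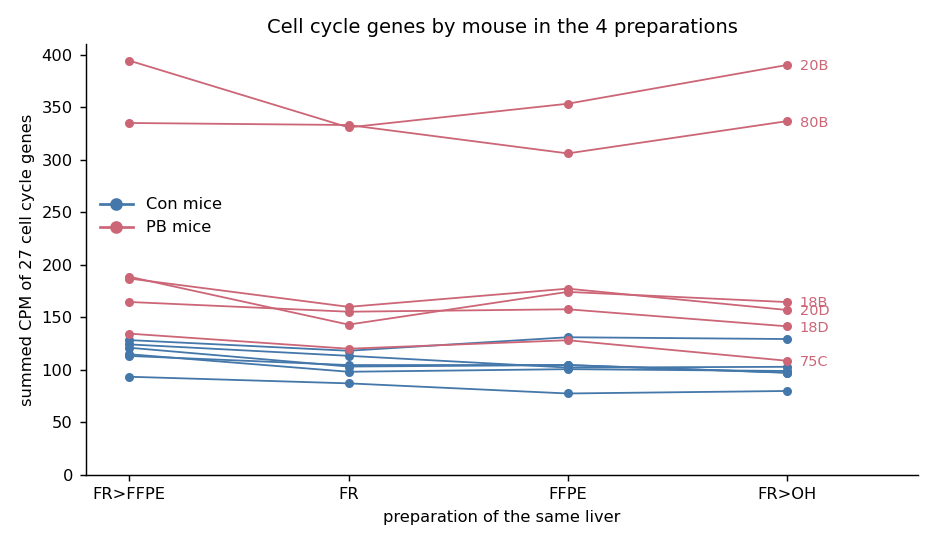
Summed CPM of 27 cell cycle genes for each mouse in the 4 preparations of its liver, lines joining the libraries of 1 mouse, Con in blue and PB in red. In FR>FFPE the Con mice lie at 93.4 to 128.3 and the PB mice at 134.5 to 394.6, and mice 20B and 80B are the 2 highest in each preparation.

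The CCAAT box, a short promoter motif bound by NF-Y and known from genes of G2 and M phase, was counted on both strands within 250 bases before the start site. It was present in 12 of 13 cell cycle DEGs with a sequence (92.3%) and in 4 of 8 cell cycle genes that were not called (50%), against 51.2% of 168 rises and 40.8% of 10280 tested genes. Other motifs were counted alike. TTTGAA, the cell cycle homology region, was in 5 of 13 of these DEGs and 1 of 8 not called, against 29.2% of rises and 13.4% of tested genes. The antioxidant response core TGACNNNGC was in 15.5% of rises and 13.9% of tested genes. The 150 bases before the start of 4 mitotic genes are shown with each CCAAT in capitals, because these genes moved together in the same mice. They are RefSeq sequence on GRCm38.p6, read 5′ to 3′ on the strand of the gene: Cdc20 at chr4:118437344-118437493 (- strand), Ccnb1 at chr13:100786487-100786636 (- strand), Ccnb2 at chr9:70421555-70421704 (- strand) and Plk1 at chr7:122159285-122159434 (+ strand).
Cdc20: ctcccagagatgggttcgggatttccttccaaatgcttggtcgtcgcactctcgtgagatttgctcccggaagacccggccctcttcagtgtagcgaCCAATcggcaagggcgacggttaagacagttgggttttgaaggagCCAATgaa
Ccnb1: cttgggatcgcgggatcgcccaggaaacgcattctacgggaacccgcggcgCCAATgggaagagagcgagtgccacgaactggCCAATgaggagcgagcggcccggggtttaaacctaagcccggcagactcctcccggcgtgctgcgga
Ccnb2: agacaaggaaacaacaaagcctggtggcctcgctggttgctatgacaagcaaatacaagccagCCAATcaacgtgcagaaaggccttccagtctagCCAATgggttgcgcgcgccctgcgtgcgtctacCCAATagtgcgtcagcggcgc
Plk1: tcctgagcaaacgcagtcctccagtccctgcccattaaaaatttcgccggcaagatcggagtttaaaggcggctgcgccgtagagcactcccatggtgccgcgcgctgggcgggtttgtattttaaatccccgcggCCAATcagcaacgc
The first base of the match lay at -53 and -8 in Cdc20, -99 and -67 in Ccnb1, -87, -54 and -21 in Ccnb2 and -14 in Plk1, counted back from the start site. A match is not a bound site.

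Other growth genes were largely not called, with 1 rise among 10. Gadd45b, a stress and growth gene known as a CAR partner, had 0.0936 to 1.10 CPM in Con and 0.609 to 6.85 CPM in PB mice, lowest in 18B (log2 fold change 3.15, SE 0.60, edgeR adjusted p = 4.78e-03). Egfr was 1673 and 1273 CPM with no call (-0.39, adjusted p = 0.4). Outside the lists, Nebl, which encodes the actin-binding protein nebulette, rose from 0.122 ± 0.158 to 18.0 ± 10.4 CPM (6.95, SE 0.58), highest in 20B and 80B. The noncoding gene 9130409I23Rik rose from 1.77 ± 0.608 to 43.4 ± 10.6 CPM (4.57, SE 0.22, chr1:181051237-181060667).

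The imprinted noncoding RNAs of the Dlk1-Dio3 region on chromosome 12, whose rise under PB is known from mouse liver, were both called where they could be tested. Only 2 of 6 listed genes passed the filter. Meg3 (chr12:109540996-109571729) had 1.13, 3.08, 5.52, 3.61, 2.07 and 2.38 CPM in Con mice and 10.3, 15.0, 11, 11.9, 16.9 and 4.45 CPM in PB mice. PB mouse 80B was below Con mouse 8D, and the change was 1.96 (SE 0.33, edgeR adjusted p = 1.79e-03). Rian, downstream of Meg3, was 0.542 to 2.34 CPM in Con and 3.77 to 7.79 CPM in PB mice with no overlap (2.42, SE 0.32, adjusted p = 2.23e-04). Mouse 80B was the lowest PB mouse in both genes, unlike in the cell cycle genes.

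CAR targets and beta-catenin targets share the cells around the central vein. Of 15 pericentral genes Cyp1a2 rose and Lgr5 fell, and the median was -0.26. Lgr5, a Wnt co-receptor, was 12.6 ± 5.57 CPM in Con and 6.20 ± 2.01 CPM in PB mice (log2 fold change -1.03, SE 0.28, edgeR adjusted p = 0.0458), and the call was lost without mouse 21C (-0.95, adjusted p = 0.0810). Glul, glutamine synthetase, was 724 to 1241 CPM in Con and 450 to 669 CPM in PB mice, and although these values do not overlap it was not called (-0.52, SE 0.15, adjusted p = 0.0575). Notum (-0.95, adjusted p = 0.0105) and Slc1a2 (-0.77, adjusted p = 6.14e-03) passed the adjusted p but not the 2-fold limit. Of 12 periportal genes Pck1 alone was called, and Cps1, of the urea cycle, was 3957 and 3949 CPM. Neither the 12 male-biased liver genes nor the 20 genes of major urinary proteins held a call, and of 15 female-biased genes 3 were tested and none called. The others of these 15 did not pass the filter, so their response was not tested here. None of 12 immediate early genes, 16 clock genes and 7 loci of small and ribosomal RNA was called. Of 15 genes of unfolded protein and amino acid stress, Trib3, an inhibitor of Akt, rose (1.62), and Hspa5, the chaperone BiP, was 849 and 882 CPM.

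The labelled tissue was checked with markers of liver cells. All 10 hepatocyte markers were measured in every mouse, with sums of 67908 to 87607 CPM in Con and 54234 to 72673 CPM in PB mice, and none was called (median -0.12; Alb -0.59, SE 0.18, edgeR adjusted p = 0.0831). Summed Kupffer cell markers were 296 to 512 CPM in Con and 336 to 640.0 CPM in PB mice, and sinusoidal endothelial markers 312 to 545 and 391 to 569 CPM. Stellate and vessel wall markers were 270 to 603 and 321 to 597 CPM, and cholangiocyte markers 49.9 to 98.7 and 26.4 to 98.1 CPM. These ranges overlapped and none of the 10, 10, 12 and 6 genes tested was called. T and NK cell markers summed to at most 8.56 CPM, B cell markers to 5.33 CPM and neutrophil markers to 6.24 CPM in any mouse. Ly6g of the neutrophils, Lep, Plin1 and Retn of adipocytes, and 6 of 9 exocrine pancreas markers (Cpa1, Cpb1, Ctrb1, Pnlip, Prss1 and Prss2) were at 0 in all 12 libraries. The pancreas markers summed to 19.1 to 29.8 CPM in Con and 10.97 to 42.7 CPM in PB mice, nearly all of it from the elastase gene Cela1 (18.9 to 29.6 and 10.5 to 42.5 CPM), which was not called (0.21, adjusted p = 0.745). Red cell markers summed to 262 to 520 CPM in Con and 195 to 789 CPM in PB mice, with none of 6 called.

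Leaving out mouse 21C changed the calls of some genes. With 5 Con mice 210 genes rose (1.57%) and 23 fell (0.172%), and 212 genes were called both ways, 27 with this mouse only and 21 without it only. Groups did not overlap in 640 tested genes in place of 488. Besides the genes given above, Inmt, a methyltransferase of indoles, was called only without 21C (log2 fold change 1.47 with and 1.91 without it). Its value was 131 CPM in 21C and 15.3 to 69.9 CPM in the other Con mice, against 88.6 to 322 CPM in PB mice. Cell cycle rises went from 17 to 15 and glutathione transferases from 9 to 10. Of 77 named genes that were called, 6 lost the call without 21C, among them Slc25a22, Lgals4, D630003M21Rik and Lgr5. The cell cycle genes behind the change from 17 to 15 are not marked one by one, so a rise named there need not hold without 21C. Cyp2b10 (11.48), Cyp3a11 (5.98), Cyp2c29 (4.41) and Gstm3 (5.83) differed little from their values with all mice.

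**Figure D5:**
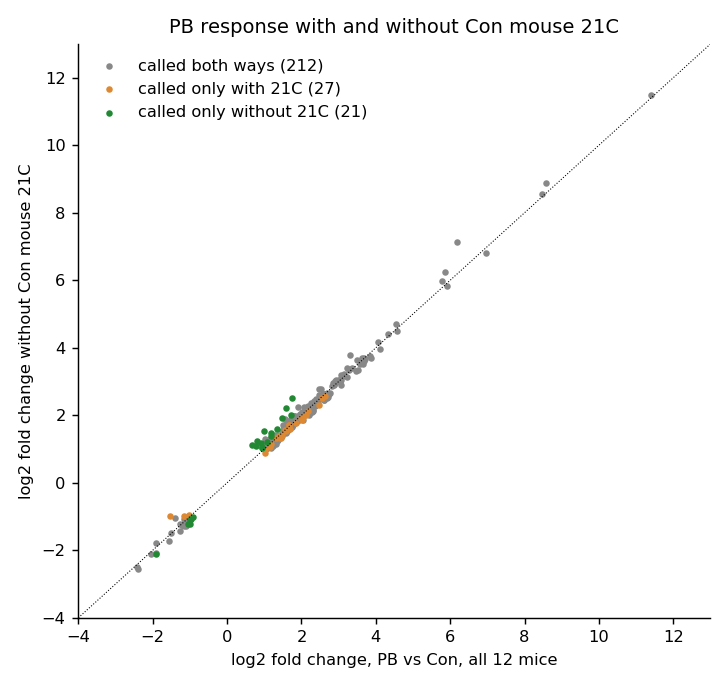
Log2 fold change of PB against Con with all 12 mice (x axis) and without Con mouse 21C (y axis) for the genes called in either, 212 called both ways (grey), 27 only with 21C (orange) and 21 only without it (green). Most points lie near the dotted line of equal values, with Cyp2b10 at 11.41 and 11.48.

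The filter that the study states, a geometric mean above 1 count, also takes out some genes with no count in any Con mouse. With no filter 295 of 17328 genes (1.70%) were DEGs, and 54 of them are left out by the geometric mean, of which 51 rose and 10 had no count in any Con library. With the filter of edgeR 202 of 12332 genes (1.64%) were DEGs, and 5 of them were left out before, namely Cyp2c66, Cyp2c65, Krt4, Pnliprp1 and Gm3776. Krt4 (chr15:101918535-101924735), an epithelial keratin, had no count in Con mice and 68, 102, 78, 58, 76 and 104 counts in PB mice (8.06 ± 1.85 CPM), at least 142-fold higher. Pnliprp1, a relative of pancreatic lipase, had 2 counts over the Con and 137 over the PB group. Since these genes reach the test through the PB group alone, their number is no measure of the response.

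The same mice gave the other preparations, so the values of each are set side by side and are not independent. The log2 fold change of Cyp2b10 was 11.41 in FR>FFPE, 12.42 in FR, 11.89 in FFPE and 10.67 in FR>OH, and its Con mean was 0.530, 0.340, 0.366 and 1.10 CPM. For Cyp3a11 the changes were 5.77, 5.86, 6.05 and 6.40, for Gstm3 5.90, 6.14, 5.91 and 6.51, and for Cdc20 3.84, 3.73, 3.08 and 3.80, in the same order. Pck1 was -1.26, -1.36, -1.30 and -1.36, and Scd1 -1.22, -1.34, -1.34 and -1.41. Abcb1a was 1.34 in FR>FFPE, 0.90 in FR, -0.09 in FFPE and 1.46 in FR>OH, and the difference from FFPE, 1.43 as an interaction (SE 0.55, edgeR adjusted p = 1.000), was not called.

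Whether the PB effect differed between FR>FFPE and another preparation was tested as an interaction, in edgeR over both preparations. The number after L goes with the treatment in FR>FFPE, so it cannot be told apart from a difference in these tests either. With group means alone no gene was called against FR (365 at an unadjusted p under 0.05, 329 in DESeq2), FFPE (381 and 342) or FR>OH (312 and 383), and DESeq2 made no call either. On simulated data the edgeR fits with group means called only 19% (FR), 12% (FFPE) and 19% (FR>OH) of 2-fold differences. They called 93%, 87% and 97% of 4-fold ones, so an absence of calls does not show equal PB effects. With the mouse as a replicate block, which uses the shared animals, still none was called against FR (1313 at an unadjusted p under 0.05) and FFPE (997), and 1 against FR>OH. That gene was Pnpla3, a lipid droplet acyltransferase, whose PB effect was 1.05 higher on the log2 scale in FR>FFPE (adjusted p = 0.0089). Its own PB effects were 0.78 in FR>FFPE, -0.21 in FR>OH, 0.54 in FR and 0.89 in FFPE, none of them called, and its FR>FFPE values overlapped (4.65 to 44.9 CPM in Con and 7.85 to 45.8 CPM in PB mice).
Without the 2-fold limit, which was dropped after the block was seen, differences of -0.82 to 1.05 on the log2 scale passed. The PB log2 fold change was lower in FR>FFPE than in FR>OH in 40 genes (0.299%) and higher in 10 (0.0748%). Of these 13 were PB DEGs in FR>FFPE. The P450 genes Cyp2a5 (-0.76), Cyp2c54 (-0.67), Cyp3a11 (-0.60), Cyp2c29 (-0.57) and Cyp1a2 (-0.54) were among the lower ones, as were Glul (-0.62) and Cyp2e1 (-0.46). In FR, FFPE and FR>OH the PB log2 fold changes were 3.36, 3.29 and 3.89 for Cyp2a5 and 4.53, 4.58 and 5.16 for Cyp2c54. They were 5.86, 6.05 and 6.40 for Cyp3a11, 4.35, 4.51 and 4.86 for Cyp2c29 and 1.61, 1.69 and 2.07 for Cyp1a2. Cyp2e1 had 0.25, 0.22 and 0.64. Glul had -0.47, -0.47 and 0.13, so its sign differed in FR>OH. FR>OH was the highest in each of these genes. In FR>FFPE the PB log2 fold change was lower in 6 of 15 pericentral genes and 6 of 12 Cyp2c genes. It was also lower in 6 of 20 genes of major urinary proteins (15 without mouse 21C) and 3 of 22 glutathione transferases. The median differences were -0.41, -0.56, -0.38 and -0.22, where that of all tested genes was 0.05. Of 12 periportal genes none was lower and 1 was higher, with a median difference of 0.20. None of 10 hepatocyte markers was called. Without mouse 21C 184 genes passed in place of 50, so this number rests in part on that mouse.

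The number after L was also the same for both treatments within some libraries of other preparations of these mice. Among FFPE libraries marked L1 (6 Con, 4 PB), 156 genes (1.17%) were PB DEGs, and among FR>OH libraries marked L5 (3 Con, 6 PB) 134 were (1.00%). In these, Cyp2b10 changed by 11.82 and 10.34, Cyp3a11 by 6.00 and 6.22, Gstm3 by 5.91 and 6.31, Cdc20 by 3.13 and 3.61, Mki67 by 2.51 and 2.43 and Pck1 by -1.43 and -1.13, beside 11.41, 5.77, 5.90, 3.84, 2.36 and -1.26 in FR>FFPE. Meg3 was 1.95 and 2.73 beside 1.96.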

How the data were processed

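Total RNA from sections of 12 FR>FFPE livers was depleted of ribosomal RNA and sequenced as stranded libraries. According to the submitters' processing notes and the methods, the authors used CASAVA 1.8.2, STAR 2.5.3a on GRCm38 and Partek Flow, whose expectation maximization gave the deposited estimated counts on RefSeq transcripts, summed by gene (92.2% whole numbers). Whether counting used the strand is not given in the sources used here. The authors' second table holds deposited log2 CPM of 13370 genes, made by dividing by total reads. It was used for 1 alternative only.

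Counts were rounded. Of 24543 genes, the 13370 whose geometric mean over the 48 mouse liver libraries exceeded 1 count (offset 1e-04) were tested. Library size was the total count. The quasi-likelihood test of edgeR 4.0.16 (R 4.3.3) was fitted to the 12 FR>FFPE libraries with treatment as the only term, with DEGs at a Benjamini-Hochberg adjusted p under 0.05 and at least 2-fold. Interactions with another preparation used 24 libraries each. DESeq2 1.42.0 and limma 3.58.1 served as alternatives, with other scalings, filters, a thinned depth and each mouse left out. Members and gene lists were chosen with earlier results of these data known. Named genes are the 12 largest rises and falls without overlap at 1 CPM or more, up to 4 called and 2 abundant other members of each list, a few fixed genes, and genes whose call rests on mouse 21C or on the filter. Promoters and sequences are from RefSeq tables of GRCm38.p6, and figures were drawn in Python 3.11.15.

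PB and Con mice are different animals, so their contrast has no pairing. Preparations share animals, and residuals of 7953 genes correlated between FR>FFPE and the same mouse's library at 0.661 to 0.824 (FR), 0.532 to 0.731 (FFPE) and 0.654 to 0.852 (FR>OH), against medians of -0.133, -0.133 and -0.152 for different mice. The replicate block by mouse made 1 call against FR>OH. No libraries were duplicates (lowest chi-square per degree of freedom 8.77). Each fit was first tested on simulated data with known changes. There the interaction fits with the block called 34% (FR), 35% (FFPE) and 49% (FR>OH) of 2-fold differences. A simulated 2-fold difference sits at the 2-fold limit of the call itself. By the adjusted p alone these fits recovered 65%, 55% and 73% of them.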

Additional observations from a re-analysis of the deposited data

Results flagged for a closer look

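In 14 of 204 sets of 6 mice, 1 mouse stood apart from the others by Dixon's criterion, and 7 of the 14 were Con mouse 21C. The sets are of named genes, some of them named because their call rests on mouse 21C. These numbers are therefore a description and cannot be set against chance. This mouse was the highest Con mouse for Cyp2c44 (94.3 CPM), Nr1i3 (71.003), Gsta1 (0.723), Ephx1 (117 CPM), Akr1b7 (0.361), Abcc3 (112 CPM) and Lgals4 (25.3), and its total count of 5534973 was the lowest. It was the highest Con mouse for Cyp2c44, Nr1i3, Ephx1, Abcc3 and Lgals4 in the FR, FFPE and FR>OH libraries of the same liver as well, but not for Gsta1 and Akr1b7. In the FR>FFPE library of mouse 21C 1 CPM is 5.53 counts, so its Gsta1 and Akr1b7 values rest on few counts. Nr1i3 was 42.1 CPM in its FR library against 15.0 to 23.9 in the other Con mice, 64.9 against 26.1 to 40.4 in FFPE and 71.3 against 20.1 to 35.7 in FR>OH. Abcc3 was 105 CPM in FR against 20.2 to 51.1. The interquartile range of the log2 deviation of its genes was 0.581 in FR>FFPE, 0.339 in FR, 0.426 in FFPE and 0.400 in FR>OH.

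Of the other sets, Con mouse 8A was the highest for Por (84.3 CPM) and 3930402G23Rik (3.29), and Con mouse 8C for Plk1 (0.879) and Gm3776 (0.439). Con mouse 90C was the highest for Pnliprp1 (0.207 CPM). PB mouse 80B was the highest for Ccnd1 (48.7 CPM) and the lowest for D630003M21Rik (0.387).

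The PB effect on Pnpla3 differed between FR>FFPE and FR>OH by 1.05 on the log2 scale with the mouse as a replicate block, as given in the report, and no other gene passed both limits there.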

How the results depend on the processing

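The number of PB DEGs in FR>FFPE was 239, and 186 (limma) to 295 (no filter) under other scalings, tests, filters, sets of libraries and a thinned depth. It was 661 by the adjusted p alone and 158 without PB mice 20B and 80B, both with fewer criteria or fewer mice by construction. Leaving out 1 mouse gave 187 (without Con 8A) to 261 (without PB 75C). TMM scaling put the median of all genes at -0.01 on the log2 scale in place of 0.06 and gave 180 rises and 25 falls. Of 77 named genes that were called, 56 kept the call under each of 25 alternatives and none changed direction. D630003M21Rik lost it 18 times, Lgr5 15, Aurka and Aurkb 14 each, Lgals4 12, Mcm6 11 and Birc5 7 times. The largest number lost at once was 15, without 20B and 80B. Of 350 recounts of 14 gene lists 344 stayed within 1.5 times the count, and the other 6 were without 20B or 80B or under TMM without 21C. The interaction with FR>OH had 0 DEGs, 1 with the replicate block, 5 with the block without 21C, and by the adjusted p alone 50 with the block, 184 with the block without 21C and 47 with the block under TMM. Neither the block nor any other alternative made a call against FR or FFPE. Within 1 number after L, the adjusted p alone gave 332 genes in FFPE and 293 in FR>OH. At 5.53 to 10.7 counts per CPM, folds of genes near or under 1 CPM in Con mice rest on few counts.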

Other observations

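Several acute-phase proteins, which the liver secretes in inflammation, split the 12 mice in a way that crosses the treatment. The serum amyloid gene Saa2 was 5.78 CPM in Con mouse 21C and 34.6, 14.3 and 11.4 CPM in PB mice 18B, 18D and 20D. The other 8 mice had 922 to 6574 CPM, with 3362 in 8A, 922 in 8C, 2590.4 in 8D, 5191 in 82B and 2411 in 90C among Con mice and 6574 in 20B, 2653 in 75C and 6069 in 80B among PB mice. Saa1 was 29.3 to 89.9 CPM in the same 4 mice and 1016 to 4478 CPM in the other 8. Neither gene was called between PB and Con (log2 fold change 0.08, edgeR adjusted p = 0.984, and 0.11, adjusted p = 0.973). Several abundant members split the mice in the same way. Haptoglobin (Hp) was 1320 to 1570 CPM in the 4 mice and 3310 to 8078 CPM in the others, hemopexin (Hpx) 1793 to 1967 and 4121 to 9791 CPM, and the fibrinogen gene Fgb 2556 to 3408 and 5764 to 7019 CPM. The iron-binding protein lipocalin 2 (Lcn2) was 2.35 to 9.94 CPM in the 4 mice and 78.8 to 1465 CPM in the others. Not all members had this split. Saa3 was 0.361 to 2.89 CPM in the 4 mice and 2.31 to 389.7 CPM in the others. Crp was 438 to 450.3 CPM in 18B, 18D and 20D, above every Con mouse (233 to 428 CPM). Within each treatment Crp kept the order of the split. It was 631 to 773 CPM in 20B, 75C and 80B, and 233 CPM in 21C against 365 to 428 CPM in the other Con mice. Its PB change of 0.67 on the log2 scale (edgeR adjusted p = 0.0359) was under the 2-fold limit.

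The same split of the summed values stood in other preparations of these livers. Summed CPM of 18 acute-phase genes in FR was 24805 to 30153 in mice 21C, 18B, 18D and 20D, and 58332 to 100781 in the other 8. In FFPE it was 11745 to 15430 and 26099 to 55548, and in FR>OH 18372 to 22053 and 45750 to 84606. The labels hold no sign of inflammation or of how the mice were handled, and the 4 mice are 1 Con and 3 PB. The grouping was seen in the values, so no test was made of it.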
